A study of Mus musculus with 8 samples.

Results

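The glycolysis and hypoxia-inducible factor (HIF) genes described here are 34 mouse genes that encode glucose transporters, the enzymes of glycolysis, the proteins that steer pyruvate and lactate, and the usual transcriptional targets of HIF. They were taken by symbol from the gene tables of single-cell libraries of B16F10 tumours, where they make up 34 of 31053 features, by a rule that uses no measured value. Earlier results of these data were known when the list was drawn up. The symbol Aldoa labels 2 features, so that 35 carry these symbols. The other Aldoa feature held 5 unique molecular identifiers (UMIs) in melanoma cells and 0 in the other cells, and was not tested. The members fall into 15 genes of glucose uptake and glycolysis, 5 genes of lactate output and glycolytic control, and 14 HIF targets outside glycolysis.

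Glycolysis splits glucose into pyruvate, which lactate dehydrogenase turns into lactate when pyruvate is not burned in mitochondria. HIF is a dimer whose alpha subunit is hydroxylated by the Egln oxygen sensors and destroyed while oxygen is plentiful. When oxygen falls the subunit persists, binds a short DNA motif, and induces glucose transporters, glycolytic enzymes, mitophagy receptors and its own inhibitors. Solid tumours outgrow their vessels and hold poorly oxygenated zones, and tumour cells, fibroblasts and macrophages can all use this programme.

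The tumours were grown from B16F10, a mouse melanoma line injected under the skin of the flank, and were collected when large. The hosts, on a C57BL/6 background and labelled as 12 weeks old, were Atf4wt/wt (4 tumours) or Atf4D/D (4 tumours), the latter made from animals with floxed Atf4, the transcription factor of the integrated stress response. Hosts of both genotypes carried Rosa26::CreERT2, a Cre recombinase expressed in all tissues that tamoxifen activates, and both received tamoxifen. The melanoma cells carried intact Atf4 in every tumour, so that the genotype is that of the host cells and any difference in melanoma cells is between hosts. The labels give hosts of both sexes. Xist, the transcript made from the inactive X chromosome, did not match the labelled sex in the 4 Atf4wt/wt libraries, so that the labelled sex could not be used as the sex of the host.

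Of 41925 cell barcodes, 28411 passed the filters, with 2709 to 5576 per tumour and a median of 8117 to 11054.5 UMIs per cell, and 96 of the 28315 distinct barcodes (0.339%) occurred in more than 1 tumour. Cells of both genotypes were aligned to each other and clustered without the 34 members. Melanoma-like cells (23697), cells like cancer-associated fibroblasts (CAF-like, 733) and myeloid-like cells (681) were named from marker genes. Of these same markers, 10 of 10 melanoma, 11 of 12 CAF and 14 of 14 myeloid markers exceeded 50 CPM (counts scaled to a common library total) in their own class, which is no separate check of the names. In CAF-like and in myeloid-like cells, 9 of the 10 melanoma markers exceeded 50 CPM as well. Median depth was 10308, 4585 and 1417 UMIs per cell in melanoma-like, CAF-like and myeloid-like cells. CAF-like cells numbered 51 to 71 in the Atf4wt/wt tumours and 10 to 244 in the Atf4D/D tumours, with the 10 cells in Atf4D/D replicate 3. The 10 melanoma markers took 0.113% to 0.553% of the UMIs of CAF-like cells and 0.189% to 0.844% of those of myeloid-like cells, against 1.51% to 1.87% in melanoma-like cells, so that the host cells carried melanoma RNA. Without the 86 CAF-like and 82 myeloid-like cells in which these markers exceeded 0.5% of UMIs, the shares were 0.057% to 0.114% and 0.124% to 0.227%. Atf4 itself measured 277, 291.7, 328.2 and 274.6 CPM in the CAF-like cells of the Atf4wt/wt tumours and 158.5, 107.8, 161 and 95.89 CPM in those of the Atf4D/D tumours, without overlap (log2 difference -1.27, adjusted p = 0.0611, edgeR quasi-likelihood fit, Benjamini-Hochberg adjusted).

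HIF binds the letters ACGTG or GCGTG, and these were searched on both strands (CACGT and CACGC on the other strand) in RefSeq promoter windows of the build GRCm38.p6, each 300 bases long with 250 bases before the start of the transcript and 50 after it. Windows were found for 30 of the 34 members, and those of Slc2a3, Bnip3l, Ndrg1 and Ero1l were not used here. The motif lay in 36 of the 45 windows of the members (80%) and in 43.8% of all 32851 windows. The windows of the members had a median GC content of 63.3% against 52.7% for all windows, and a median of 21 CpG sites against 7, and the part of base composition in the difference was not tested. A match describes letters in the window and not a bound site. The windows of Car9, Ankrd37 and Bnip3 are printed because these genes stood over 4-fold higher in hypoxia-like melanoma cells than in the others, and those of Eno1 and Pfkfb4 because they stood at the low end of the same range. Motif letters are in capitals, and the strand of the gene is read from the 5′ end.
Car9 (chr4:43506776-43507075, plus strand): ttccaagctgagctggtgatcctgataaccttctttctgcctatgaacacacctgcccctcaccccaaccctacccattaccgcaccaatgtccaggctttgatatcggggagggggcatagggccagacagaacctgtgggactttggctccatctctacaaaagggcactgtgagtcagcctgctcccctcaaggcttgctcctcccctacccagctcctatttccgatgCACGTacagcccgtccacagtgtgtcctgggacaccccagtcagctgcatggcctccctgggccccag
Ankrd37 (chr8:45999801-46000100, minus strand): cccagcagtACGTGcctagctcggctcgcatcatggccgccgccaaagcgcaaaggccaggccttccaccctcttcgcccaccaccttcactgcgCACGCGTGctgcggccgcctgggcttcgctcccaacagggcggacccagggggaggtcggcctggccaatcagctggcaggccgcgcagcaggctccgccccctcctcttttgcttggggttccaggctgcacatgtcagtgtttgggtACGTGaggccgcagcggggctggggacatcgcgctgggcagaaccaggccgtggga
Bnip3 (chr7:138909457-138909756, minus strand): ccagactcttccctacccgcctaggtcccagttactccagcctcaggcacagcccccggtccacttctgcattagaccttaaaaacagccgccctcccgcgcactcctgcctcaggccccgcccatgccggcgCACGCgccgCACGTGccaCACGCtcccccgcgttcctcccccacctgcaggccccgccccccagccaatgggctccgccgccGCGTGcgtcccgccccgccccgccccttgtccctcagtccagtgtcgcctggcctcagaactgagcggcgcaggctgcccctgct
Eno1 (chr4:150236458-150236757, plus strand): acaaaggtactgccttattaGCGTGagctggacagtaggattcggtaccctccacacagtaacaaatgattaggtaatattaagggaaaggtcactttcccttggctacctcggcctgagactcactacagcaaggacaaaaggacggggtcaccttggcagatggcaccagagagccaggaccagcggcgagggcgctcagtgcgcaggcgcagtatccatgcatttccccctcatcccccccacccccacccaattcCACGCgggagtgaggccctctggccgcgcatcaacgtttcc
Pfkfb4 (chr9:108991652-108991951, plus strand): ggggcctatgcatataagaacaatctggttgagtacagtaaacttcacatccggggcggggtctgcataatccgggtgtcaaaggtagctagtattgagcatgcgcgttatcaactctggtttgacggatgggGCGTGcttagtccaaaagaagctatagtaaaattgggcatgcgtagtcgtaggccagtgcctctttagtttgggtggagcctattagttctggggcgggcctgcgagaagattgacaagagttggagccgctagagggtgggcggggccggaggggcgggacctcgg
The motif count was 5 for Bnip3 and 4 for Ankrd37, and it was 1 for Car9, 2 for this Eno1 window and 1 for Pfkfb4, so that the number of matches did not follow the size of the difference among these 5 genes.

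The level of each member was first compared between melanoma-like, CAF-like and myeloid-like cells of the same 8 tumours. As a share of the UMIs of a class, most glycolytic enzymes were higher in melanoma-like cells. The glucose transporter Slc2a1, the lactate exporter Slc16a3 and some HIF targets, such as Ndrg1 and Egln3, were higher in CAF-like and myeloid-like cells. Among myeloid-like cells, Slc2a1, Slc16a3 and Ndrg1 were highest in 129 cells led by Mmp12 and Arg1. The classes differed in UMIs per cell, and amounts per cell were not compared. UMIs were summed per tumour and class and expressed as CPM, scaled among the sums that enter a comparison, so that the CPM of a gene differs slightly from comparison to comparison. Against CAF-like cells, 15 of the 34 members were higher in melanoma-like cells and 12 were lower (edgeR's quasi-likelihood test with tumour as a block, adjusted p under 0.05), where 28.2% and 25.1% of the 11779 genes tested, 53.3% in all, were called in these directions. Which direction held more members depended on single tumours. The split was 11 higher and 16 lower without Atf4wt/wt replicate 2. It was 12 and 13 without Atf4D/D replicate 2, and 11 and 15 without Atf4D/D replicate 3. Against myeloid-like cells, 19 members were higher in melanoma-like cells and 9 were lower (27.5% and 17.6% of 11541 genes, 45.1% in all). The median log2 difference over the members was -0.12 against CAF-like cells and 0.41 against myeloid-like cells, beside 0.12 and 0.30 over all genes tested. The directions differed between the groups of genes. Of the 15 uptake and enzyme genes, 11 were higher and 2 lower in melanoma-like than in CAF-like cells, whereas of the 14 HIF targets 3 were higher and 6 lower. Against myeloid-like cells, 12 of the uptake and enzyme genes were higher and 1 lower, and 6 of the HIF targets were higher and 5 lower.

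**Figure D1:**
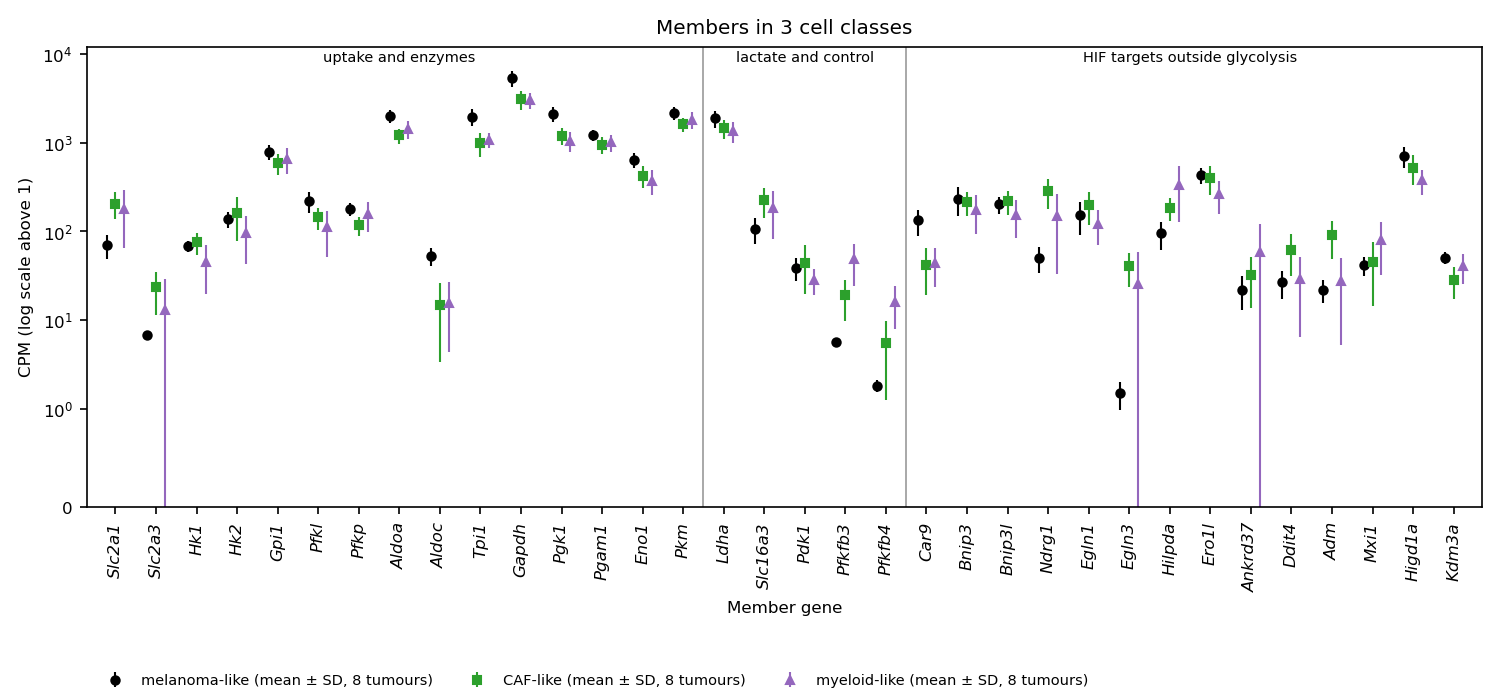
Level of each member in melanoma-like, CAF-like and myeloid-like cells, as mean CPM of 8 tumours (points) with the SD between tumours (bars) on an axis that is linear near 0 and logarithmic above; the horizontal axis names the genes. Most enzymes, such as Gapdh and Pgk1, have the melanoma-like point on top, and Slc2a1, Ndrg1 and Egln3 have the CAF-like point above the melanoma-like point.

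Slc2a1, the basal glucose transporter GLUT1, ranged from 39.4 to 103 CPM in melanoma-like cells (median 67.3), from 74.3 to 289 CPM in CAF-like cells (median 219.6) and from 37.9 to 373 CPM in myeloid-like cells (median 153). Its melanoma-like level was lower than the CAF-like level by a log2 difference of -1.57 (SE 0.14, adjusted p = 5.9e-12) and lower than the myeloid-like level by -1.01 (SE 0.17, adjusted p = 4.2e-07), all by edgeR. The ranges overlapped because the CAF-like and myeloid-like levels spread widely between tumours. Pooled over tumours, Slc2a1 was at 589 CPM in the 129 myeloid-like cells led by Mmp12 and Arg1. In the other myeloid-like subclusters it was between 46.2 and 132 CPM. The comparison with melanoma-like cells was not repeated without these 129 cells. Slc2a3, the high-affinity transporter GLUT3, was also lower in melanoma-like than in CAF-like cells (6.84 ± 0.669 against 23.4 ± 11.8 CPM, SD, n = 8). Hk2, the inducible hexokinase that traps glucose as its phosphate, was at 137 ± 28.0 CPM in melanoma-like and 161 ± 82.5 CPM in CAF-like cells, a difference that did not pass the test (adjusted p = 0.13, edgeR), and was lower in myeloid-like cells at 96.1 ± 53.2 CPM (adjusted p = 0.0061 against melanoma-like cells).

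The enzymes below hexokinase stood higher in melanoma-like cells. Gapdh, which oxidises glyceraldehyde 3-phosphate, ranged from 3808 to 6451 CPM in melanoma-like cells (median 5352), from 1934 to 4256 CPM in CAF-like cells (median 3125) and from 1998 to 3947 CPM in myeloid-like cells (median 2948). Pgk1, which makes the first ATP of the pathway, ranged from 1507 to 2659 CPM in melanoma-like cells (median 2188), from 853 to 1528 CPM in CAF-like cells (median 1177) and from 740.0 to 1462 CPM in myeloid-like cells (median 1067). For Pgk1 the lowest melanoma-like tumour lay above the myeloid-like range, and the ranges of melanoma-like and CAF-like cells met only at their ends. The log2 difference between melanoma-like and CAF-like cells was 0.78 for Gapdh (adjusted p = 1.1e-05) and 0.81 for Pgk1 (adjusted p = 2.9e-06), and Tpi1, the triose isomerase, differed by 0.94 (adjusted p = 1.4e-06, edgeR). Aldoc, the aldolase isoform best known from brain, had the largest difference among the enzymes, 53.4 ± 12.1 CPM against 14.8 ± 11.4 CPM in CAF-like cells and 15.8 ± 11.4 CPM in myeloid-like cells. When the cells carrying melanoma RNA were left out, the difference from CAF-like cells became 1.00 for Gapdh and 1.01 for Pgk1.

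Among the genes of lactate output and control, Ldha, the muscle-type lactate dehydrogenase subunit, was at 1882 ± 421 CPM in melanoma-like, 1448 ± 359.6 CPM in CAF-like and 1366 ± 365 CPM in myeloid-like cells (n = 8). Its excess over CAF-like cells was small (log2 0.35, adjusted p = 0.036, edgeR) and was 0.15 with an adjusted p of 0.217 without Atf4D/D replicate 3. Slc16a3, the lactate exporter MCT4, went the other way, at 107 ± 35.4 CPM in melanoma-like cells against 225 ± 82.0 CPM in CAF-like cells and 183 ± 101 CPM in myeloid-like cells (log2 -1.15, adjusted p = 4.2e-07, and -0.60, adjusted p = 0.0011). Pfkfb3 and Pfkfb4, bifunctional enzymes that set the level of the activator of phosphofructokinase, were lowest in melanoma-like cells, with Pfkfb3 at 5.62 ± 0.692 CPM there, 19.0 ± 9.20 CPM in CAF-like and 48.6 ± 24.5 CPM in myeloid-like cells. Pdk1, a kinase that keeps pyruvate from being burned in mitochondria, was at 39.1 ± 11.2, 44.6 ± 24.9 and 28.7 ± 9.28 CPM in the 3 classes. Its difference between melanoma-like and CAF-like cells (log2 -0.46, adjusted p = 0.027, edgeR) did not pass without the cells carrying melanoma RNA (adjusted p = 0.0799).

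The HIF targets outside glycolysis split most widely. Egln3, an oxygen sensor that is itself induced by HIF, ranged from 0.792 to 2.31 CPM in melanoma-like cells (median 1.54), from 20.9 to 58.9 CPM in CAF-like cells (median 44.2) and from 0 to 99.0 CPM in myeloid-like cells (median 13.9). Every CAF-like level exceeded every melanoma-like level, with a log2 difference of -4.88 (adjusted p = 1.6e-16, edgeR). Ndrg1, a stress-induced protein, was lower in melanoma-like than in CAF-like cells in the same way (50.5 ± 16.2 against 287 ± 106 CPM, log2 -2.53, adjusted p = 5.0e-15), as was Adm, which encodes the vessel-dilating peptide adrenomedullin (22 ± 6.44 against 90.8 ± 41.7 CPM, log2 -2.15, adjusted p = 2.8e-13).
Car9, a cell-surface carbonic anhydrase that removes acid, stood the other way round at 133 ± 43.2 CPM in melanoma-like, 42.3 ± 23.3 CPM in CAF-like and 44.1 ± 20.6 CPM in myeloid-like cells. Without the cells carrying melanoma RNA its log2 difference from CAF-like cells was 2.71 in place of 1.43. Bnip3, a mitophagy receptor, did not pass the test between melanoma-like and CAF-like cells (232 ± 80.9 against 214 ± 65.5 CPM), nor did Ero1l, an oxidase of the endoplasmic reticulum (428 ± 87.1 against 403 ± 146 CPM). Hilpda, a lipid-droplet protein, was highest in myeloid-like cells at 337 ± 208 CPM.

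Between the host classes, 25 members passed the filter on low counts, of which 13 were higher and 1 was lower in CAF-like than in myeloid-like cells (27.7% and 20.8% of 3566 genes, 48.6% in all, edgeR with tumour as a block). Ndrg1 (log2 1.30), Ddit4, an inhibitor of mTORC1 signalling (1.59), and Adm (2.01) stood higher in CAF-like cells, and Hilpda was the member that stood lower (-0.58, adjusted p = 0.035). The count of 14 members past the threshold was 21 of 34 without the filter on low counts, 13 with DESeq2 size factors and 15 without the cells carrying melanoma RNA. It was 9 without Atf4wt/wt replicate 1 or without Atf4D/D replicate 4, and 17 without Atf4wt/wt replicate 2.

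Within melanoma-like cells, 9 clusters were compared. A cluster of 3241 cells led by Nppb and Espn was named hypoxia-like from a list of 20 hypoxia markers that holds no member, such as Vegfa and Pgf, and a cluster of 3574 cells led by Fgf21 was named stress-like from targets of the integrated stress response. Comparisons between clusters are descriptions without a test, because the clusters were formed on the same cells. The members stood higher in the hypoxia-like cells almost throughout: 32 of 34 were above the other melanoma-like cells in all 8 tumours, where 20.6% of 11599 genes were, and the median log2 difference over the members was 1.20 beside 0.00 over all genes. For 23 members the mean difference exceeded 1. The median was 0.92 for uptake and enzyme genes, 0.87 for lactate output and control, and 1.73 for the HIF targets outside glycolysis.

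Car9 measured 399, 505, 463 and 523 CPM in the hypoxia-like cells of Atf4wt/wt replicates 1 to 4 and 459.6, 523, 412 and 482 CPM in those of Atf4D/D replicates 1 to 4. In the other melanoma-like cells of the same tumours it measured 93.2, 137, 81.6 and 46.0 CPM and 123, 78.8, 115 and 130.0 CPM. The hypoxia-like levels lay close together in all tumours, the others spread more widely, and Atf4wt/wt replicate 4 had the lowest level outside the cluster and a level among the highest inside it. The mean log2 difference was 2.28 ± 0.58 (SD, n = 8).

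Ndrg1 followed at 2.24 ± 0.23 (178 against 37.5 CPM), Ankrd37, an ankyrin-repeat HIF target, at 2.18 ± 0.47 (74.7 against 16.7 CPM), Bnip3 at 2.12 ± 0.49 (753 against 181 CPM) and Ero1l at 2.04 ± 0.26 (1381 against 337 CPM). Ndrg1 and Ero1l had the most even differences of these 5 genes over the 8 tumours. Slc2a1 led the uptake and enzyme genes, at 165, 196, 198 and 227 CPM in the hypoxia-like cells of the Atf4wt/wt tumours and 228, 218, 221 and 258 CPM in those of the Atf4D/D tumours, against 46.0, 60.6, 47.0 and 35.5 CPM and 72.4, 45.5, 62.7 and 77 CPM in the other melanoma-like cells. Its log2 difference was 1.95 ± 0.35, and the lowest hypoxia-like level was above the highest other level.

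The enzymes followed with smaller differences. Pfkp, a phosphofructokinase subunit, differed by 1.43, Hk2 by 1.39, Gpi1, the glucose phosphate isomerase, by 1.15, Gapdh by 1.00 and Pgk1 by 0.96 on the log2 scale. Pgam1, the phosphoglycerate mutase (0.63), and Eno1, the enolase that follows it (0.57), stood at the low end among the abundant enzymes. Ldha measured between 2683 and 3413 CPM in the hypoxia-like cells (8 tumours) and between 1336 and 2346 CPM in the others, a difference of 0.78 ± 0.30, and the pair of ranges did not overlap. Slc2a3 was above in 6 of 8 tumours (0.45) and Pfkfb4 in 4 of 8 (0.12), both at levels of a few CPM.

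**Figure D2:**
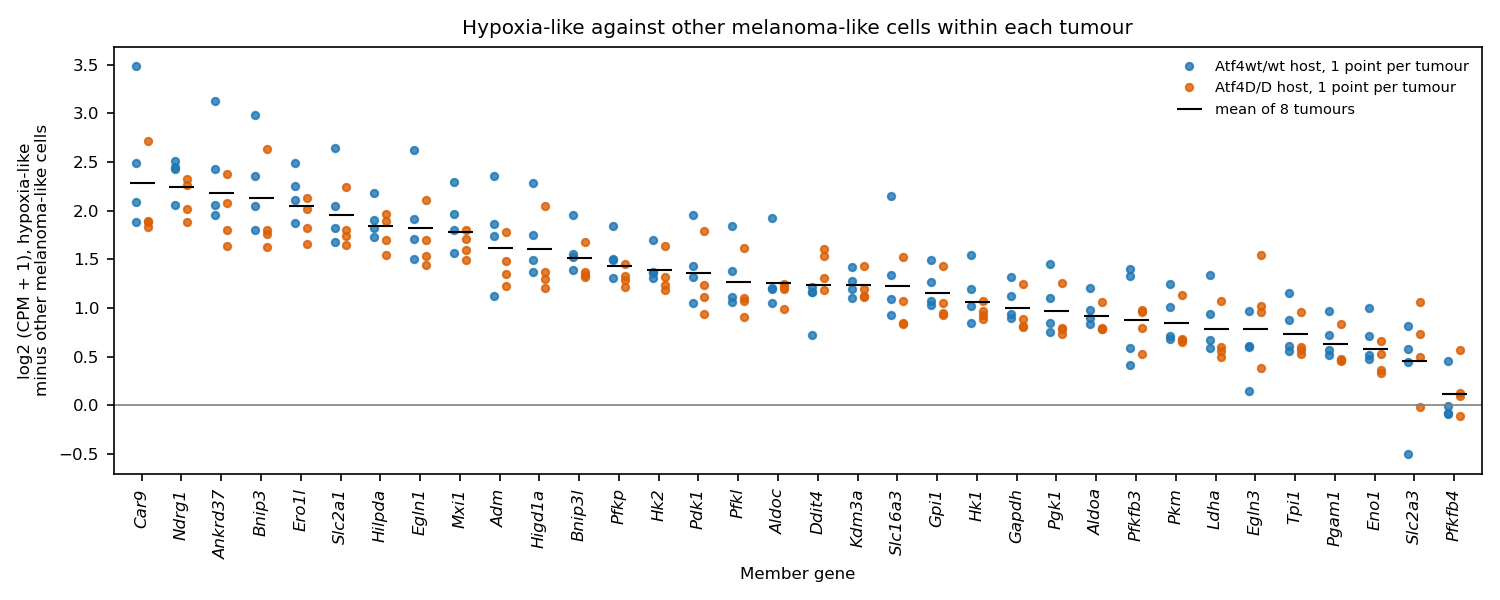
Log2 difference of each member between hypoxia-like and other melanoma-like cells, with a point for each of the 8 tumours and the genes in order of their mean on the horizontal axis. HIF targets such as Car9 and Ndrg1 lie near 2, enzymes such as Gapdh near 1, and Slc2a3 and Pfkfb4 are the only members with tumours at or below 0.

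Across the 9 melanoma-like clusters, 33 members had their highest mean level in the hypoxia-like cluster, where 17.2% of 10891 genes did, and 29 were highest there in all 8 tumours (2.88% of genes). Pfkfb4 was highest in the cluster led by the interferon-response genes Ifit1 and Ifit3 (3.14 ± 1.62 CPM). The lowest mean fell in the cluster led by the mitosis genes Cenpa and Cdc20 for 20 members (12.6% of genes). Ndrg1 spanned 12.7 ± 2.91 CPM in that cluster to 181 ± 32.5 CPM in the hypoxia-like cluster, 14.2-fold, and Car9 spanned 46.7 ± 14.3 to 478 ± 49.6 CPM, 10.2-fold. Pgam1 and Eno1 spanned 1.64-fold and 1.68-fold.

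**Figure D3:**
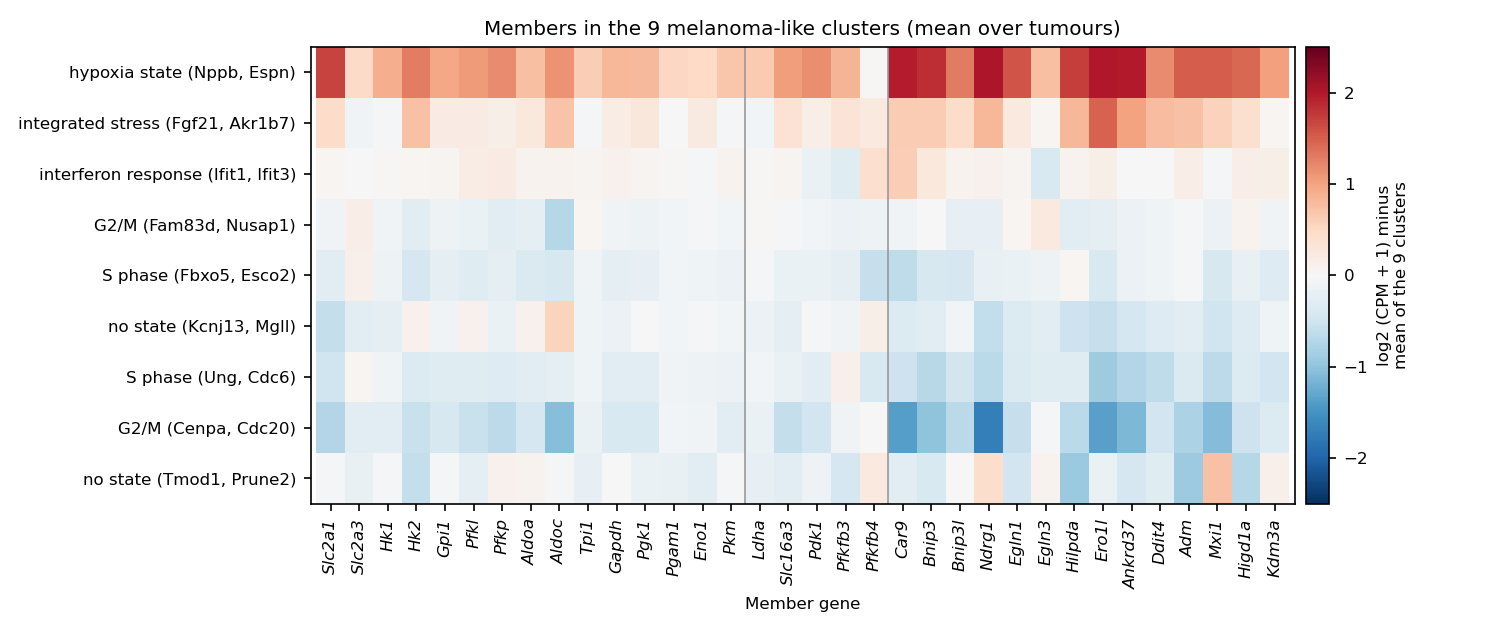
Heat map of the members in the 9 melanoma-like clusters, as log2(CPM + 1) minus the mean of the 9 clusters, averaged over tumours. The hypoxia-like cluster is high for nearly every gene, the stress-like cluster is high for some HIF targets such as Ero1l, and the cluster led by Cenpa and Cdc20 is low for 20 genes.

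The stress-like cluster also stood above the remaining clusters for most members. Compared with the 7 clusters other than itself and the hypoxia-like cluster, 24 of 34 members were above in all 8 tumours (24.6% of 11416 genes), with a median of 0.47. They were 12 of the 14 HIF targets (median 0.96), 10 of the 15 uptake and enzyme genes (0.41) and 2 of the 5 genes of lactate output and control (0.42). Ero1l had the largest difference, at 962 ± 279.6 CPM against 241 ± 29.8 CPM (log2 1.94 ± 0.31), followed by Ankrd37 (1.34), Ndrg1 (1.24), Hilpda (1.05) and Car9 (1.03). Among the uptake and enzyme genes Hk2 (0.99, 217.8 against 107.6 CPM), Aldoc (0.96), Slc2a1 (0.77), Aldoa, the main aldolase (0.47), Pgk1 (0.44) and Gapdh (0.38) were above in all 8 tumours. Ldha (-0.01), Tpi1 (0.02) and Pkm, the pyruvate kinase (0.07), differed little. Against the stress-like cluster, the hypoxia-like cluster was above in all 8 tumours for 27 of the 32 members that passed the filter (17.7% of 10213 genes), with a median of 0.63 over the 34, led by Car9 (1.40) and the oxygen sensor Egln1 (1.39), while Ero1l was above in 7 of 8 (0.55).

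The tumours differed in how many of their melanoma-like cells were hypoxia-like. The share was 12.2%, 19.5%, 10.6% and 3.91% in Atf4wt/wt replicates 1 to 4 and 19.3%, 9.98%, 13.9% and 20.6% in Atf4D/D replicates 1 to 4, with exact 95% binomial intervals, which cover counting error only, of 3.19% to 4.73% for the lowest and 19.1% to 22.1% for the highest. The groups overlapped, and Atf4wt/wt replicate 4 stood below the rest. A cluster of 243 cells with the highest median mitochondrial share had been removed, and 230 of them came from Atf4wt/wt replicate 4. The part of this removal in the low hypoxia-like share was not tested. The clusters were formed after the cells of both genotypes had been aligned to each other. The means were 11.5% ± 6.41 and 15.9% ± 4.91 (SD, n = 4 each), a difference of 4.41 percentage points with p = 0.314 in an exact two-sided permutation test of 70 assignments, whose smallest possible p is 0.0286. The difference was 1.86 points without Atf4wt/wt replicate 4 and 7.06 points without Atf4wt/wt replicate 2.

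The members moved together between tumours in the melanoma-like cells. The median deviation of the members from their mean over tumours, on the log2 scale, was -0.07, 0.28, -0.19 and -0.48 in Atf4wt/wt replicates 1 to 4 and 0.27, -0.25, 0.16 and 0.33 in Atf4D/D replicates 1 to 4. Atf4wt/wt replicate 4 was the lowest tumour for 27 of the 34 members, and Atf4wt/wt replicate 2 and Atf4D/D replicate 4 were each the highest for 13. Within the hypoxia-like cells alone the medians lay between -0.14 and 0.08, and in the other melanoma-like cells between -0.39 and 0.28. The spread of these medians between tumours was smaller inside the hypoxia-like cluster than outside it. The cluster groups cells that are alike in expression, while the other cells pool the remaining clusters. The part of this grouping in the smaller spread was not tested.

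**Figure D4:**
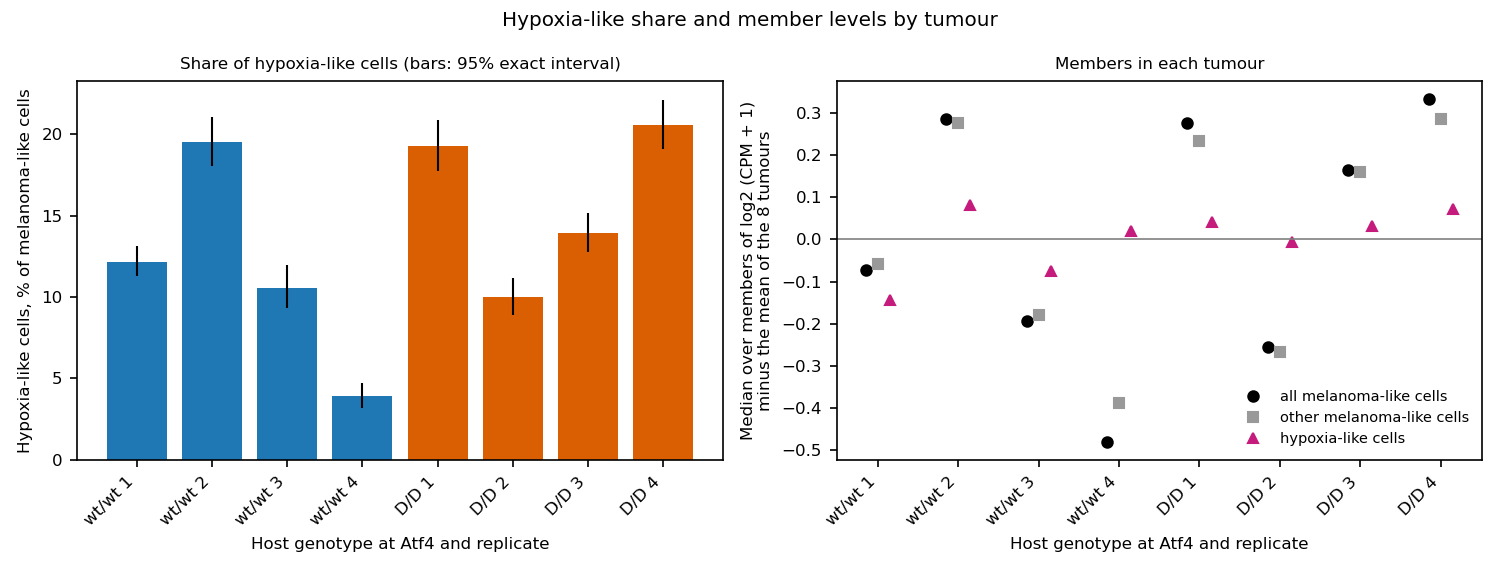
Share of melanoma-like cells in the hypoxia-like cluster by tumour (bars from 0 with exact 95% intervals), and the median log2 deviation of the members from their mean over tumours in all melanoma-like, other melanoma-like and hypoxia-like cells. Atf4wt/wt replicate 4 has the lowest share (3.91%) and the lowest median in all melanoma-like cells (-0.48), while the hypoxia-like medians stay between -0.14 and 0.08.

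Among the host cells, a myeloid-like subcluster of 129 cells led by Mmp12 and Arg1 had higher levels of many members than the other myeloid-like cells. The pair could be compared in 4 tumours, of which 3 were Atf4D/D. The other myeloid-like cells included a subcluster of 34 cells with a median of 8956 UMIs, in which all 10 melanoma markers were commonly detected. It held 95196 of the 189077 myeloid-like UMIs of Atf4wt/wt replicate 1. In Atf4D/D replicates 1, 2 and 4 it held 8789 of 129931, 102388 of 456717 and 13620 of 243992. Its part in the differences was not tested. Of the 23 members that passed the filter on low counts, 17 were above in all 4 (16.9% of 1566 genes), and Ddit4 and Pfkfb3, which did not pass it, were above in all 4 as well. The median log2 difference over the 34 members was 1.08, and Slc2a1 and Adm are among the leading genes of the subcluster. Hilpda measured 1169 CPM in the subcluster of Atf4wt/wt replicate 1 and 959, 1334 and 1725 CPM in that of Atf4D/D replicates 1, 2 and 4, against 179, 257, 139 and 266 CPM in the other myeloid-like cells. All 4 differences were large, with a mean of 2.64 ± 0.56 (SD, n = 4). Ndrg1 (565 against 91.3 CPM, 2.71 ± 0.91) and Ankrd37 (2.81 ± 1.5) differed by as much with more spread, and Gapdh was above in 3 of 4 tumours (0.82).

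CAF-like cells held 2 large subclusters, 256 cells led by genes such as Pi16 and 238 cells led by Thbs4 and Cck. Of the 22 members that passed the filter on low counts, 1 was above in the Thbs4- and Cck-led cells in all 6 tumours compared (7.49% of 1509 genes), namely Bnip3l, a mitophagy receptor like Bnip3 (0.51). Pfkfb3 (1.77) and Egln3 (1.40) did not pass the filter and were above in all 6 as well. The median log2 difference was 0.84 over the 14 HIF targets, 0.16 over the uptake and enzyme genes and -0.23 over lactate output and control, beside -0.06 over all genes. Pooled over tumours, Ero1l was at 866 CPM (exact 95% interval 805 to 931, counting error only) in the Thbs4- and Cck-led and 351 CPM (319 to 384) in the Pi16-led cells, and Hilpda at 425.0 CPM (382 to 471) and 195 CPM (172 to 221). Ankrd37 was at 67.9 CPM (51.6 to 87.8) and 15.5 CPM (9.48 to 24.0), and Mxi1 at 122 CPM (99.5 to 148) and 52.8 CPM (41.0 to 66.9). Within tumours Ero1l and Hilpda were above in 4 of 6, and Ankrd37 and Mxi1 in 5 of 6. Slc2a1 averaged 423 against 166 CPM and Ndrg1 693 against 317 CPM, each above in 5 of 6 tumours, while Slc16a3 (-0.61), Car9 (-1.14) and Adm (-1.48) had negative mean differences. A further 55 CAF-like cells with pericyte markers held 170210 UMIs over all tumours, with 19, 16 and 11 of the cells in 3 tumours. Among these UMIs were 2 of Ndrg1 (11.8 CPM, exact 95% interval 1.42 to 42.4) and 4 of Slc2a1 (23.5 CPM, 6.40 to 60.2). Another 86 CAF-like cells were led by melanoma genes including Dct, had a median of 12306 UMIs, and commonly held all 10 melanoma markers. They held 126832 of the 338523 CAF-like UMIs of Atf4wt/wt replicate 1, 235606 of 720083 in Atf4D/D replicate 1 and 0 of 40826 in Atf4D/D replicate 3. Pooled over tumours, Car9 was at 153 CPM in them and between 11.8 and 25.6 CPM in the other CAF-like subclusters. They stayed in the main fits by genotype.

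Host genotype was then compared over the 4 tumours of each group. No member passed an adjusted p of 0.05 in melanoma-like cells (0 of 34, where 0.0319% of 12554 genes did), in CAF-like cells (0 of 29 tested, 0% of 4708 genes) or in myeloid-like cells (0 of 23 tested, 0% of 2864 genes), by the edgeR quasi-likelihood fit with p-values adjusted after Benjamini and Hochberg over all genes tested. At an unadjusted p under 0.05 there were 5, 4 and 3 members, all higher in Atf4D/D hosts, beside 11.3%, 6.39% and 10.1% of all genes. Most differences were positive, 31 of 34 in melanoma-like cells with a median log2 difference of 0.23, 25 of 29 in CAF-like cells (0.24) and 22 of 23 in myeloid-like cells (0.26), while the medians over all genes were 0.00, -0.01 and 0.00. The melanoma-like median was 0.11 without Atf4wt/wt replicate 4 and 0.40 without Atf4wt/wt replicate 2, the CAF-like median 0.13 without Atf4wt/wt replicate 2 and 0.38 without Atf4wt/wt replicate 3, and the myeloid-like median 0.15 without Atf4D/D replicate 4 and 0.48 without Atf4D/D replicate 3. Under 2 alternatives chosen after seeing the data, the myeloid-like median was 0.09 without the Arg1-led subcluster, with 16 of 22 differences positive, and the CAF-like median was 0.28 without the pericyte-marker subcluster, with 28 of 29 positive. The latter fit lacks Atf4D/D replicate 3, which kept 8 cells, and leaving out that tumour alone gave 0.35. The 95% interval of a member's log2 difference reached a median of 0.40 to either side in melanoma-like, 0.56 in CAF-like and 0.67 in myeloid-like cells.

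In melanoma-like cells the largest differences were those of Ddit4 (0.55, adjusted p = 0.437), Slc2a1 (0.50, adjusted p = 0.399) and Egln1 (0.50, adjusted p = 0.578). Ddit4 measured 15.7, 33.6, 27.2 and 15.5 CPM in Atf4wt/wt hosts and 28.3, 24.9, 39.6 and 41.3 CPM in Atf4D/D hosts, and Slc2a1 measured 58.9, 82.8, 61.0 and 42.3 CPM and 97.8, 59.5, 81.8 and 108 CPM. Both overlapped between genotypes. Eno1, singled out after its values were seen, was the member without overlap (6.35% of all genes), at 551, 668, 563 and 512 CPM in Atf4wt/wt and 849.9, 752, 707 and 848 CPM in Atf4D/D hosts. Its log2 difference was 0.46 (SE 0.09, 95% interval 0.26 to 0.66, adjusted p = 0.148 by edgeR), and it passed with DESeq2 (adjusted p = 9.2e-04) and in edgeR without the filter on low counts (0.023). Eno1b, a near-identical copy whose reads the counting could share with Eno1, was at 7.93 to 14.1 CPM against 17.0 to 25.9 CPM (log2 1.04, adjusted p = 0.0854), so that the Eno1 value is uncertain.

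The other genes followed in every tumour were, in melanoma-like cells, within the spread between tumours. Gapdh measured 4864, 6539, 4838 and 4661 CPM in Atf4wt/wt and 6883, 3980.0, 6507 and 6778 CPM in Atf4D/D hosts, and Ldha 1930.0, 2284, 1552 and 1462 CPM and 2374, 1484, 2324 and 2569 CPM. In both, Atf4wt/wt replicate 2 stood with the higher Atf4D/D tumours and Atf4D/D replicate 2 with the lower Atf4wt/wt tumours. Pgk1 showed the same pattern, at 2130.0, 2852, 1855 and 1617 CPM and 2516, 1900.0, 2512 and 2660.0 CPM, and Hk2 overlapped between hosts at 155, 182, 164 and 105 CPM and 148, 121, 109.6 and 177 CPM. Car9 measured 126, 196, 116 and 61.3 CPM and 177, 114, 150.5 and 190.5 CPM, and Bnip3 218, 320.5, 190.5 and 109.5 CPM and 332, 186, 254 and 359.9 CPM. The lowest value of both HIF targets was that of Atf4wt/wt replicate 4, the tumour with the smallest hypoxia-like share. Ndrg1 (39.6, 59.3, 50.2 and 35.3 against 89.0, 39.8, 52.4 and 63.5 CPM), Slc16a3 (104, 148, 83.1 and 72.2 against 138, 69.1, 125 and 171 CPM) and Pdk1 (38.2, 55.1, 31.7 and 25 against 52.3, 29.6, 46.0 and 54.0 CPM) overlapped as well. The same held for Ero1l (379.5, 588, 405 and 326 against 541, 379, 502 and 517 CPM), for Ankrd37 (19.7, 36.9, 20.3 and 8.35 against 28.5, 16.2, 22 and 35.4 CPM), for Adm (21.7, 27.5, 21.3 and 13.6 against 25.9, 17.4, 23.5 and 36.2 CPM) and for Egln3, which stayed below 3 CPM.

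**Figure D5:**
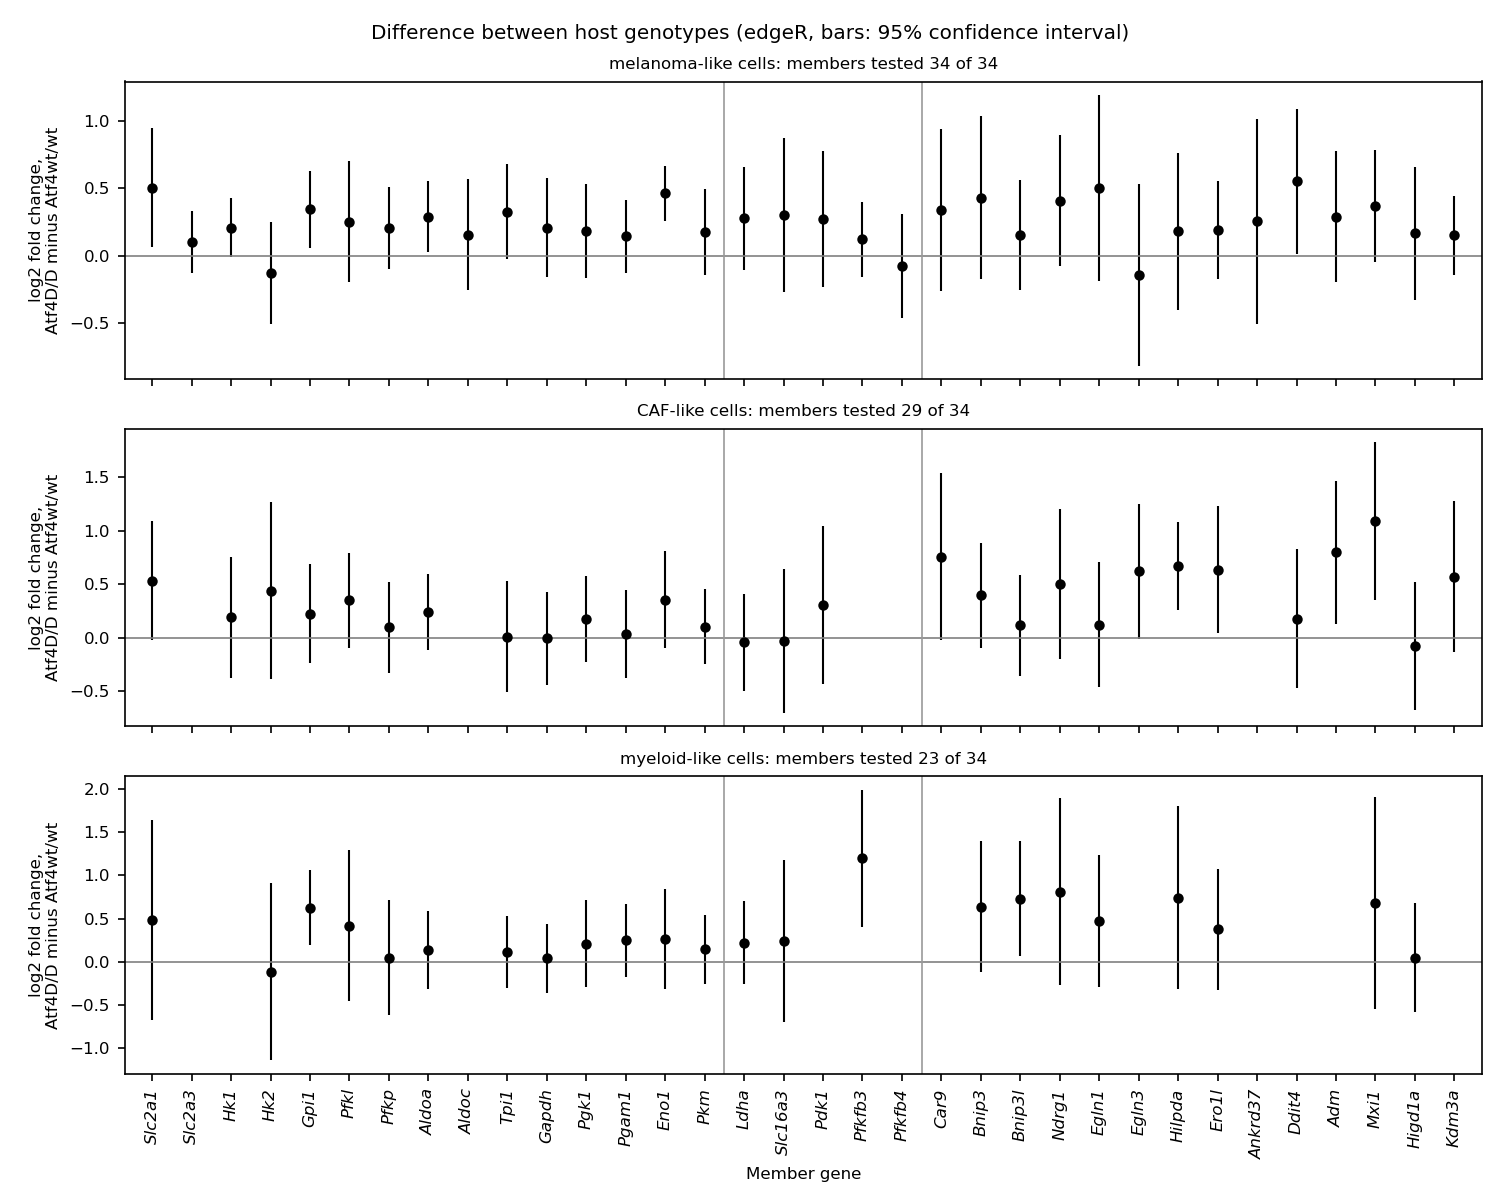
Log2 difference between Atf4D/D and Atf4wt/wt hosts of each member (edgeR estimate with its 95% interval) in melanoma-like, CAF-like and myeloid-like cells, with positive values higher in Atf4D/D. Most points lie to the positive side of 0, no member passes an adjusted p of 0.05, and the intervals are narrowest in melanoma-like cells.

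Inside the hypoxia-like cells the genotypes were close for most members. None of 33 tested passed (0.0494% of 10125 genes), 7 had an unadjusted p under 0.05 (8% of genes), of which 6 were higher in Atf4D/D, and 23 differences were positive with a median of 0.06. Ddit4 differed most at 30.2, 59.8, 54.0 and 23.8 CPM against 60.5, 63.9, 80.3 and 73.3 CPM, without overlap (log2 0.65, adjusted p = 0.311, edgeR, where groups of 4.55% of genes did not overlap). Without the filter on low counts its adjusted p was 4.0e-06 (edgeR). Its log2 difference lay between 0.65 and 0.70 over the alternative settings, so that the pass rests on the adjusted p of that setting. Slc2a1 (0.27, adjusted p = 0.476) and Eno1 (0.27, adjusted p = 0.46) came next, and Hk2 was the member with a negative difference among the 7 (-0.25). In the other melanoma-like cells, none of 34 passed (0% of 12434 genes), 4 had an unadjusted p under 0.05 (10.3%), Eno1 was again without overlap (6% of genes), 31 were positive and the median was 0.21, with Eno1, Ddit4 and Egln1 each at 0.46 (adjusted p for Eno1 = 0.161). Whether the genotype difference itself differed between hypoxia-like and other melanoma-like cells was not tested.

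CAF-like cells were taken as host cells, which carry the deleted Atf4 in Atf4D/D hosts, although 86 of them were led by melanoma genes. In CAF-like cells Mxi1, a Myc antagonist, measured 38.3, 21.4, 50.8 and 20.7 CPM in Atf4wt/wt and 69.8, 96.1, 0 and 64.8 CPM in Atf4D/D hosts. Apart from Atf4D/D replicate 3, with 10 cells and 40826 UMIs, the Atf4D/D values were all higher (log2 1.09, SE 0.34, adjusted p = 0.618, and 0.0239 without the filter on low counts, edgeR). Adm measured 112, 38.6, 84.6 and 41.3 CPM against 87.2, 143, 69.0 and 149 CPM (0.80, adjusted p = 0.722), and Car9 67.8, 21.4, 23.7 and 23.6 CPM against 72.7, 37.5, 23.0 and 66.8 CPM (0.76, adjusted p = 0.77), both with overlap. In Atf4wt/wt replicate 1, with the highest Car9 level of its group, melanoma markers also took their highest share of CAF-like UMIs (0.553%), and the part of melanoma RNA in the Car9 levels was not tested. Hilpda, singled out after its values were seen, was the tested member without overlap (3.63% of genes), at 150.3, 120.1, 179 and 121 CPM against 204, 194, 230.0 and 281 CPM, with an adjusted p of 0.54. Slc2a1 measured 200.4, 72.9, 234 and 142 CPM in Atf4wt/wt and 265, 199, 299 and 235 CPM in Atf4D/D hosts. Atf4wt/wt replicate 2 was the lowest tumour for Slc2a1 and for 15 of the 29 members tested. The CAF-like cells of the tumours differed in make-up. The pericyte-marker subcluster held 4, 19, 2 and 11 of the 71, 51, 64 and 71 CAF-like cells of the Atf4wt/wt tumours and 1, 0, 2 and 16 of the 125, 97, 10 and 244 of the Atf4D/D tumours, so that its share was highest in Atf4wt/wt replicate 2. Without this subcluster and Atf4D/D replicate 3, the log2 difference by genotype was 0.41 in place of 0.53 for Slc2a1, 0.43 in place of 0.50 for Ndrg1, 0.54 in place of 0.67 for Hilpda and 1.07 in place of 1.09 for Mxi1, and no member passed an adjusted p of 0.05 (edgeR).

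The remaining followed genes overlapped between genotypes in CAF-like cells. Ndrg1 measured 301, 68.6, 379 and 189 CPM against 319.9, 382, 322 and 326 CPM, Ero1l 386, 184, 497 and 186 CPM against 593, 445, 459.9 and 459 CPM, and Egln3 38.3, 21.4, 54.1 and 20.7 CPM against 58.2, 56.2, 23.0 and 49.3 CPM. The 4 Atf4D/D values of Ndrg1 lay close together while the Atf4wt/wt values spread widely. Gapdh (3646, 2573, 3059 and 3094 against 4205, 2459, 2001 and 3625 CPM), Pgk1 (1432, 836, 1167 and 1057 against 1509, 1179, 897 and 1421 CPM) and Ldha (1597, 1034, 1763 and 1488 against 1761, 1263, 874 and 1722 CPM) had their lowest value in Atf4D/D replicate 3 or Atf4wt/wt replicate 2. Hk2 (271, 30, 159 and 103 against 176, 251, 92.0 and 201 CPM), Slc16a3 (227, 77.2, 345 and 259.8 against 246, 159, 207 and 272 CPM) and Bnip3 (229.9, 116, 247 and 171 against 260.3, 237, 138 and 302 CPM) did likewise. Pdk1 (47.1, 21.4, 67.7 and 47.2 against 56.7, 37.5, 0 and 75.6 CPM) and Ddit4 (82.5, 34.3, 88.0 and 56.1 against 69.8, 77.3, 0 and 87.1 CPM) were listed at 0 in the 10 cells of Atf4D/D replicate 3. Slc2a3, Pfkfb3, Pfkfb4, Aldoc and Ankrd37 had too few counts to be tested.

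In myeloid-like cells, Pfkfb3 measured 35.3, 30.3, 11.5 and 30.4 CPM in Atf4wt/wt and 82.0, 57.9, 57.4 and 63.1 CPM in Atf4D/D hosts. These values rest on only 7, 1, 2 and 6 UMIs in the Atf4wt/wt and 10, 27, 5 and 15 UMIs in the Atf4D/D tumours. The groups did not overlap (log2 1.20, SE 0.37, adjusted p = 0.373, edgeR), nor did those of Gpi1 (479, 516, 460.5 and 456 against 1008, 570.3, 642 and 816 CPM), singled out after its values were seen, where 6.32% of genes did not. Ndrg1 (111, 182, 74.8 and 60.8 against 385, 81.5, 68.8 and 164 CPM, log2 0.81, adjusted p = 0.585) and Hilpda (303, 546, 97.8 and 112 against 484, 212, 206 and 598 CPM, 0.74, adjusted p = 0.609) overlapped. Slc2a1 measured 156, 364, 92.1 and 35.5 CPM against 229.5, 75.0, 138 and 274 CPM, and Bnip3 156, 182, 109 and 91.2 CPM against 246, 135, 103 and 311 CPM. Atf4D/D replicates 1 and 4 were high for these 4 genes and Atf4D/D replicates 2 and 3 were not. Gapdh (2804, 3307, 2579 and 2492 against 3673, 1895, 2857 and 3392 CPM), Pgk1 (1251, 1001, 685 and 719 against 1361, 744, 1079 and 1182 CPM), Ldha (1452, 1244, 840.3 and 1150.0 against 1918, 967, 1262 and 1502 CPM), Hk2 (141, 60.7, 132 and 35.5 against 107, 72.9, 22.9 and 152 CPM), Slc16a3 (141, 303, 121 and 116 against 295, 96.5, 57.4 and 257 CPM) and Ero1l (146, 364, 167 and 228 against 361, 169, 184 and 374 CPM) overlapped too. Of the followed genes, Pdk1, Car9, Egln3, Ankrd37, Ddit4 and Adm were not tested there. The Arg1-led subcluster held 17, 8, 8 and 3 of the 68, 26, 59 and 109 myeloid-like cells of the Atf4wt/wt tumours and 21, 19, 5 and 48 of the 57, 160, 32 and 170 of the Atf4D/D tumours, 36 of 262 against 93 of 419 in all. Without it the log2 difference by genotype was 0.17 in place of 0.81 for Ndrg1, 0.04 in place of 0.64 for Bnip3 and -0.06 in place of 0.38 for Ero1l. It was 0.68 in place of 0.74 for Hilpda, 0.55 in place of 0.48 for Slc2a1 and 0.46 in place of 0.63 for Gpi1, and 1 member in place of 3 had an unadjusted p under 0.05.

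The genotype difference in CAF-like cells was compared with that in melanoma-like cells by an interaction term with tumour as a block. None of the 34 members passed (0.345% of 12754 genes, edgeR), and the interaction had an unadjusted p under 0.05 for 5 members, 4 of them with a larger difference in CAF-like cells, beside 5.69% of all genes. The median interaction over the members was -0.05 beside 0.06 over all genes, and -0.32 without Atf4wt/wt replicate 2.

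The other genes of these pathways were taken from lists of paralogs and neighbouring enzymes (30 genes), HIF subunits and regulators (14) and hypoxia-state genes that are no members and named the hypoxia-like cluster (20). In the genotype comparison none of the 22, 12 and 19 tested in melanoma-like cells passed (0.0319% of all genes did), with medians of 0.10, 0.05 and 0.20. Between melanoma-like and CAF-like cells, 28.2% of all genes tested were called higher and 25.1% lower in melanoma-like cells. Of the paralogs and neighbouring enzymes, 10 were higher and 3 lower of 22 tested, with Ldhb, the heart-type lactate dehydrogenase subunit, at a log2 difference of 2.00 and Pdk2, a sister kinase of Pdk1, at -2.65. Of the HIF subunits and regulators, 4 were higher and 4 lower of 12 tested, near the shares over all genes. The alpha subunits Hif1a and Epas1 were lower in melanoma-like cells, by -0.76 and -3.15. Epas1 spread widely in CAF-like cells, from 3.38 to 141.5 CPM in the Atf4wt/wt and from 9.38 to 69.0 CPM in the Atf4D/D tumours. Of the hypoxia-state genes, 2 were higher and 17 lower of 19 tested, including the vessel growth factors Vegfa (-2.11) and Pgf (-3.61). Against myeloid-like cells the counts were 9 higher and 2 lower of 22 paralogs and neighbouring enzymes, 3 higher and 0 lower of 12 HIF subunits and regulators, and 7 higher and 4 lower of 18 hypoxia-state genes. Over all genes tested there, 27.5% were higher and 17.6% lower.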

How the data were processed

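Single-cell 3′ RNA libraries of 8 B16F10 tumours were analysed. Per the labels, the deposited values are UMI counts per gene and cell, made by the authors with Cell Ranger 3.1.0 on GRCm38, and the submitters' processing notes also name Seurat 3.2.1. The labels and the study's methods differ on the kit version and on the age of the hosts. The filters asked for 200 to 5000 genes per cell, a mitochondrial share of 7.5% or less, and detection of a gene in 3 or more cells. In Seurat 5.3.0, the cells of both genotypes were first aligned to each other by anchor integration, and the mitochondrial share was regressed out. They were then clustered (2000 variable genes without the members, 20 components, resolution 0.6, 16 clusters). The part of this alignment in the comparisons of clusters by genotype was not tested. No doublet caller was run, so that the upper limit on genes was the treatment of doublets. Another 2804 cells of low UMI count stayed unnamed. The cluster with the highest median mitochondrial share, 243 cells, was removed, and 230 of them came from Atf4wt/wt replicate 4.

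UMIs were summed per tumour and class where a tumour held at least 10 cells, and tested in R 4.3.3 with edgeR 4.0.16 (quasi-likelihood, TMM scaling, filterByExpr, Benjamini-Hochberg adjustment over all genes, threshold 0.05). DESeq2 1.42.0 was an alternative. Genotype fits had no covariate, and class and interaction fits had tumour as a block. State differences used log2(CPM + 1). CPM was scaled within each set of sums compared, except pooled subcluster values. Genes followed in every tumour were 15 fixed members, any member past the threshold by genotype, and the 3 largest genotype differences per class.

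The members and gene lists were chosen with earlier results of these data known. On simulated counts with melanoma-like depth, 88% of genes changed 2-fold and 70% of those changed 1.5-fold were recovered, against 63% and 12% with CAF-like depth and 16% and 4% with myeloid-like depth. The simulated counts were drawn independently for each gene, with a spread set by its level alone. They hold no shift shared by genes of a tumour, so that recovery of members that move together was not measured. The tumours are labelled as biological replicates, and same-numbered tumours of the 2 genotypes were not paired.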

Additional observations from a re-analysis of the deposited data

Results flagged for a closer look

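In 6 of 86 groups of 4 tumours, the highest or lowest tumour stood far from the others by Dixon's criterion at the 95% level, which chance meets in about 1 of 20 groups. In melanoma-like cells, Gapdh was at 6540 CPM in Atf4wt/wt replicate 2, where the other Atf4wt/wt tumours had 4660 to 4860 CPM, and at 3980 CPM in Atf4D/D replicate 2, where the other Atf4D/D tumours had 6510 to 6880 CPM. In CAF-like cells, Car9 was at 67.8 CPM in Atf4wt/wt replicate 1 (others 21.4 to 23.7 CPM), Ndrg1 at 382 CPM in Atf4D/D replicate 2 (others 320 to 326 CPM) and Ero1l at 593 CPM in Atf4D/D replicate 1 (others 445 to 460 CPM). In myeloid-like cells, Slc16a3 was at 303 CPM in Atf4wt/wt replicate 2 (others 116 to 141 CPM), a library with 26 such cells.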

How the results depend on the processing

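With DESeq2 and without the filter on low counts, 1 member passed by genotype in melanoma-like and 1 in other melanoma-like cells, Eno1 in each case. Without the filter, 1 passed in CAF-like cells (Mxi1) and 1 in hypoxia-like cells (Ddit4). Over the alternative settings the log2 difference was 1.05 to 1.17 for Mxi1 and 0.65 to 0.70 for Ddit4. Differences by genotype near 0 changed sign in CAF-like cells for Ldha (0.054 with Xist detection as a covariate, an alternative chosen after seeing the data, 0.0361 with at most 5% mitochondrial counts and 0.0322 without the pericyte-marker subcluster, also chosen after seeing the data), for Gapdh (0.0102 with sex, 0.0687 with Xist, 0.023 with 5% mitochondrial counts, 0.0304 without cells carrying melanoma markers and 0.064 without the pericyte-marker subcluster) and for Slc16a3 (0.14 with the replicate block, 0.0907 with Xist). In myeloid-like cells Hk2 did so (0.0299 with the replicate block, 0.36 with Xist, 0.13 without cells carrying melanoma markers), and without the Arg1-led subcluster, an alternative chosen after seeing the data, so did Gapdh (-0.0973), Slc16a3 (-0.11) and Ero1l (-0.0618). Between classes, Bnip3 changed sign against CAF-like cells (0.0883 without the filter) and Ddit4 against myeloid-like cells (-0.10 without carrying cells). The cause was not tested.

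Leaving out each tumour in turn gave 25 to 27 members past the threshold between melanoma-like and CAF-like cells, 24 to 28 against myeloid-like cells, 9 to 17 between CAF-like and myeloid-like cells (21 of 34 without the filter on low counts), and 0 to 1 for the interaction. The directions were less stable than the totals. Between melanoma-like and CAF-like cells, 15 members were higher and 12 lower in all tumours, but 11 were higher and 16 lower without Atf4wt/wt replicate 2. Genes that changed sign had ranges of -0.30 to 0.10 (Egln3) and -5e-04 to 0.65 (Ankrd37) by genotype in melanoma-like cells. In CAF-like cells these were -0.17 to 0.0942 (Ldha), -0.1949 to 0.14 (Gapdh), -0.2846 to 0.22 (Slc16a3) and -0.0656 to 0.53 (Pdk1). In myeloid-like cells they were -0.52 to 0.21 (Hk2), -0.0467 to 0.20 (Gapdh) and -0.0478 to 0.51 (Slc16a3). Between classes they were -0.17 to 0.0786 (Bnip3) and -0.0646 to 0.17 (Ero1l) against CAF-like cells and -0.0391 to 0.40 (Ddit4) against myeloid-like cells.

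Same-numbered tumours did not deviate together (correlations of -0.40 to -0.06 in melanoma-like and -0.13 to 0.14 in CAF-like cells), and not every tumour correlated best with its own number. With the replicate block, 0 members passed by genotype in any of the 5 comparisons, with medians of 0.25, 0.27 and 0.26 in melanoma-like, CAF-like and myeloid-like cells and 0.04 and 0.22 in hypoxia-like and other melanoma-like cells. Other settings kept direction and side of the threshold for 481 values of single genes and 89 counts or medians. The share of hypoxia-like cells differed by 3.82 to 6.61 percentage points under the other clusterings and the mitochondrial limit. Depth limits the CAF-like and myeloid-like comparisons.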
